A study of Caenorhabditis elegans with 20 samples.

Results

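The comparison described here set the granulin 2 strain AWK43, with the genotype pgrn-1(-); granulin 2(+), against the N2 wildtype strain, both as day 1 adults of the nematode Caenorhabditis elegans. Libraries were chosen by their strain label, which gave 4 per strain, so 8 of the 20 libraries of the series were compared, and all 15737 genes that passed a filter on low levels were tested. The other 12 libraries were 4 each of the pgrn-1 null strain (CF3050, pgrn-1(-)), the granulin 1 strain (AWK33, pgrn-1(-); granulin 1(+)) and the granulin 3 strain (AWK107, pgrn-1(-); granulin 3(+)). The granulin 2 strain lacks the endogenous progranulin gene, as do the null and the other granulin strains, so it differs from wild type by the deletion and by the added granulin together. Granulin 2 was carried by 1 strain, and the promoter and copy number of its transgene are not given in the labels, so an effect of granulin 2 and any other difference of that strain cannot be told apart. Sample names carry the letters A to D in wild type and E to H in granulin 2. What the letters stand for could not be learned from the labels, and if they mark batches, batch and strain cannot be told apart in this comparison. Nothing in the labels ties each library to its own culture, and the p-values therefore cover only the variation among these samples, some or all of it possibly technical.

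Progranulin is a secreted protein that is taken up by cells, moves to lysosomes and is cut there into granulins, small peptides held together by many cysteine pairs. In mammals its loss impairs lysosomes, and in C. elegans single granulins have been studied for their effect on lysosomal function and stress resistance. A day 1 adult hermaphrodite is a self-fertile animal that made its sperm in the last larval stage, stored it, and has since switched its germline to oocytes. Whole animals were sequenced, so levels in the gut, epidermis, nerves, muscle and germline are summed in each value.

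Wild-type libraries held 49262671 to 55184445 reads and granulin 2 libraries 49951656 to 108912781. Ribosomal RNA genes took 6.96%, 6.30%, 52.7% and 25.02% of the reads in granulin 2 replicates 1 to 4 and 1.05%, 4.87%, 5.92% and 44.8% in wild-type replicates 1 to 4. The slope of log2 gene level on log2 transcript length was 0.28, -0.39, -0.22 and 0.30 in granulin 2 replicates 1 to 4 and between -0.01 and 0.29 in wild type, so granulin 2 replicates 2 and 3 had relatively lower levels of long transcripts than the others. On the first principal component of all libraries, which held 37.5% of the variance, granulin 2 lay between 90.02 and 135.5 and wild type between -85.6 and -63.02. Both strains expressed the yolk genes of adult hermaphrodites: the vitellogenin and yolk receptor list summed to 51390 to 212700 CPM (reads as a rate of the scaled library size) in granulin 2 and 66780 to 361200 CPM in wild type.

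In ce11 coordinates pgrn-1, the progranulin gene, lies on the plus strand of chromosome I from 11701631 to 11703698 (WBGene00011936). It was read at 193.3, 249.5, 241.1 and 118 CPM in the granulin 2 libraries and at 10.7, 12.4, 15.03 and 36.9 CPM in wild type. Every granulin 2 library lay above every wild-type library. The log2 change was 3.54 ± 0.47 (SE, n = 4 per strain, limma with Benjamini-Hochberg adjusted p = 8.32e-06), where the null had 0.207 ± 0.11 CPM (SD, n = 4). A total over the gene does not show which part of it was read, so these values do not separate granulin 2 from full-length progranulin. The neuronal gene unc-119, often used to mark transgenes in this species, had 26.2 to 35.7 CPM in granulin 2 and 8.05 to 14.2 CPM in wild type, a change of 1.49 ± 0.24 (adjusted p = 5.22e-05). The null had 9.43 ± 1.01 CPM of it, granulin 1 had 10.2 ± 2.12 CPM, and granulin 3 stood at 49.9 ± 4.57 CPM (SD, n = 4 per strain). Whether a transgene here carried unc-119 is not stated in the labels.

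Many more genes were higher than lower in granulin 2, and most of the higher ones were genes that wild type barely expressed. Of the 15737 genes, 2444 were called higher (15.5%) and 441 lower (2.80%) at an adjusted p under 0.05, and 4378 had an unadjusted p under 0.05. The 2 strains did not overlap in 3392 genes (21.6%), among them 2256 of those called higher and 373 of those called lower. Changes upward were large: 2405 of the higher genes exceeded 1 on the log2 scale, 1805 exceeded 2 and 744 exceeded 4, with a median of 2.99, or 2.90 with the 66 genes that had 0 reads in wild type set to their bounds. Downward, 359 genes were below -1 and 49 below -2, with a median of -1.28. The higher genes had a median level of 1.4 CPM in granulin 2 and 0.118 CPM in wild type, and together they held 0.994% of the summed CPM of tested genes in granulin 2 and 0.157% in wild type. The lower genes had medians of 9.08 CPM in granulin 2 and 20.9 CPM in wild type. Of all calls 84.7% were higher, against 96.5% on the deposited scale without scaling factors (2348 higher and 84 lower, with the median of all genes shifted by 0.197), 62.7% with the length slope as a covariate (3092 and 1839) and 64.7% with library weights (3235 and 1762).

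**Figure D1:**
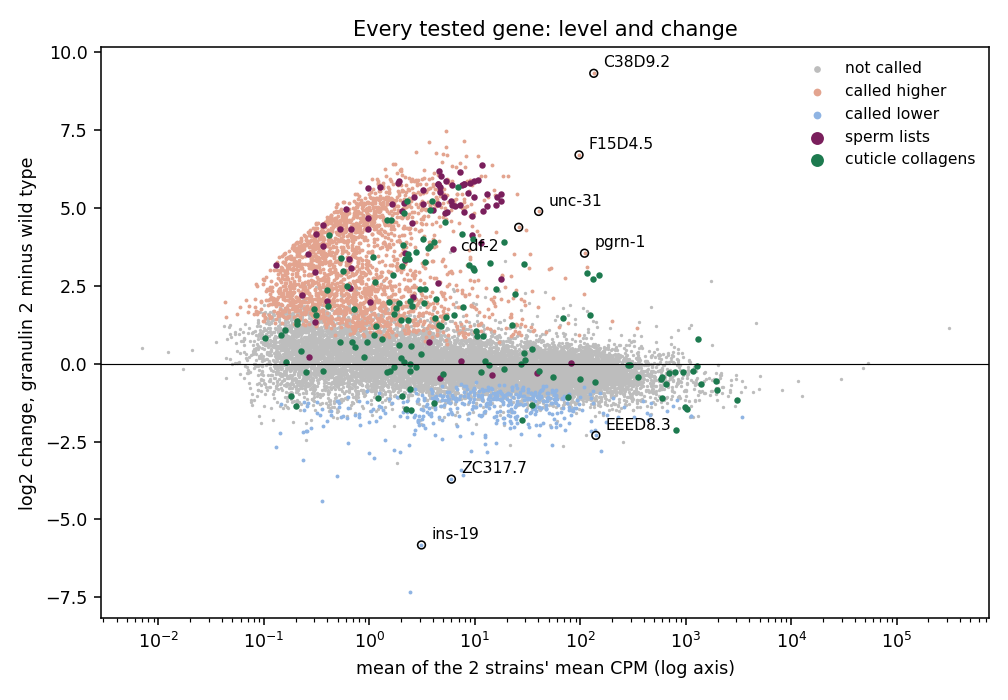
Each point is 1 of the tested genes, with the mean of the 2 strains' mean CPM on a log axis and the log2 change, granulin 2 minus wild type. Points called higher (2444) crowd at low levels, points called lower (441) lie at middle levels, and the sperm lists form a band near 5 on the log2 scale.

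The share of genes called depended on how strongly a gene was expressed. Among genes with a mean under 0.3 CPM over all 20 libraries, 36.7% were higher and 0.491% lower, and between 0.3 and 1 CPM 36.4% were higher. At 10 to 100 CPM 1.51% were higher and 4.86% lower, and at 100 CPM or more 0.254% were higher and 1.83% lower. The filter kept a gene at 0.177 CPM or more in any 4 libraries. A weak gene could thus enter the test through the 4 granulin 2 libraries alone, and the part of the filter in these shares was not tested. The number of genes with at least 1 read was 19478 to 22051 in granulin 2 and 17335 to 17712 in wild type. After thinning all libraries to the same 30439624 reads outside ribosomal RNA genes, it was 18739 to 21012 in granulin 2 and 16838 to 17329 in wild type, with no overlap. Counts at equal depth were 2278 genes higher and 379 lower. Pseudogenes, which make no protein, were also called: 163 of 584 tested were higher (27.9%) and 24 lower, beside 15.5% and 2.80% of all genes. The chemoreceptor families, which are read in a few sensory neurons each, were added after values were seen. Of their 1309 genes 81 were tested, and 14 were higher and 0 lower, beside the same shares of all genes. The summed level of all family members was 76.9 to 129.2 CPM in granulin 2 and 66.1 to 115.8 CPM in wild type. The part that this wider detection of weak genes plays in the calls below was not tested.

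**Figure D2:**
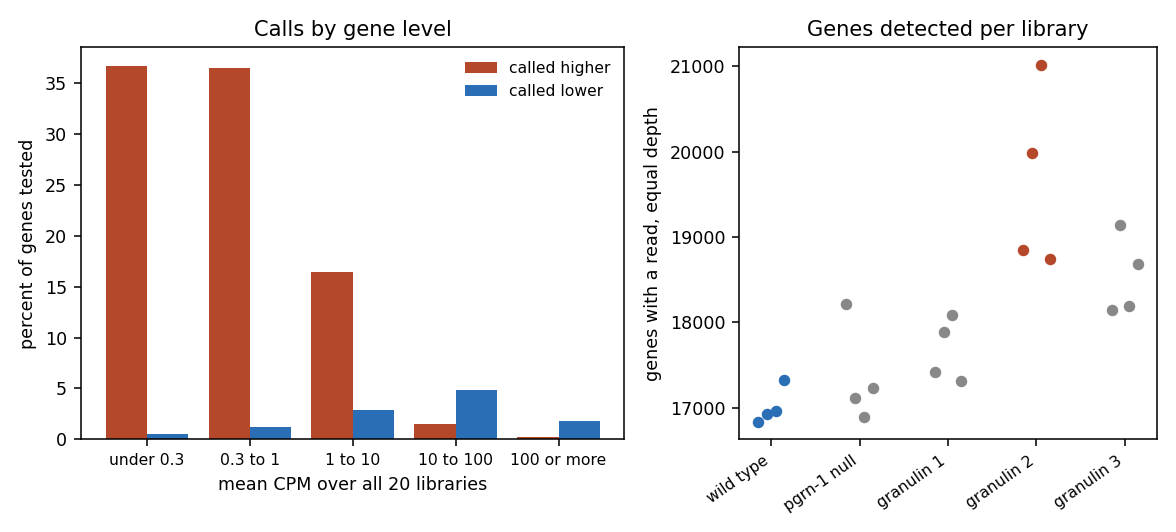
The left panel gives the percent of tested genes called higher and lower by mean CPM over all 20 libraries, and the right panel the number of genes with a read in each library after thinning to equal depth. The 4 granulin 2 libraries hold 18739 to 21012 genes and the 4 wild-type libraries 16838 to 17329.

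Sperm genes made the most uniform group. Major sperm proteins are the small cytoskeletal proteins that drive the crawling of nematode sperm and signal to oocytes, and all 28 of the tested members were higher, with a median log2 change of 5.54 (lowest 4.12, highest 6.38) against 0.00 over all genes. Their summed level was 220.8, 273.7, 562.4 and 397.9 CPM in granulin 2 replicates 1 to 4 and 17.5, 12.7, 4.27 and 3.73 CPM in wild type. The lowest granulin 2 library was thus above the highest wild-type library. As these genes are near-identical copies, reads may have been split among them and single members are uncertain. In bulk animals a larger number of cells that hold this RNA and more RNA per cell cannot be told apart. The part of the exact stage of the animals in these values was not tested. Of the small sperm protein families, 23 of 24 were higher and none lower (median 5.28), and their sum was 160.4 to 409.6 CPM against 8.15 to 20.7 CPM. The count of higher members ranged from 28 to 29 for the first list and from 22 to 24 for the second over the 21 alternatives.

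The spermatogenesis and fertilization list followed with 21 of 28 higher and 0 lower (median 3.002). It holds spe and fer genes, which are needed to build, activate or deliver sperm, and the phosphatase genes gsp-3 and gsp-4. The membrane protein gene spe-19 had 0.974, 1.18, 1.63 and 0.956 CPM in granulin 2, and in wild type 1 read each in replicates 2 and 3 and 0 in replicates 1 and 4, for a change of 4.97 ± 0.49 (adjusted p = 6.7e-07). For spe-54 the values were 2.08 to 5.51 CPM in granulin 2 and 0.0445 to 0.162 CPM in wild type (4.89 ± 0.49, adjusted p = 7.26e-07). Other members did not pass, of which spe-39 and spe-48 were chosen after their values were seen. The gene spe-39, which also serves vesicle traffic outside sperm, had 79.6 CPM in granulin 2 and 84.8 CPM in wild type (0.01 ± 0.47), and spe-48 had 33.4 and 44.1 CPM (-0.31 ± 0.34, adjusted p = 0.627). In all, 72 of the 80 tested genes of the 3 sperm lists were higher, 0 were lower and the median was 4.95, and they made up 2.95% of all higher calls. Without the libraries above 20% ribosomal RNA, 17 members of the spermatogenesis and fertilization list were higher.

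**Figure D3:**
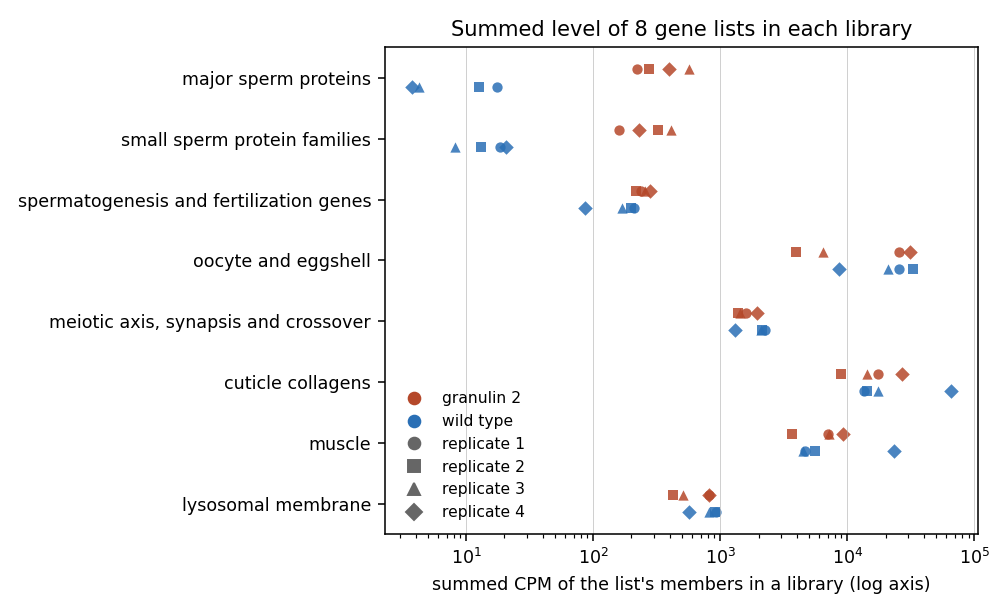
Each point is the summed CPM of a list's members in 1 library on a log axis, in granulin 2 and in wild type, with 1 symbol per replicate. Major and small sperm proteins separate the strains without overlap, while the oocyte, meiosis, collagen, muscle and lysosomal membrane sums overlap.

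Markers of males were at few reads beside these sperm genes. The polycystin genes lov-1 and pkd-2, which are read in male sensory neurons, had 3 to 8 and 9 to 33 reads in granulin 2 libraries and 1 to 3 and 1 to 7 reads in wild type (0.127 to 0.535 CPM against 0.0203 to 0.169 CPM for pkd-2). As CPM both overlapped between the strains, as did all list members but try-5. The coexpressed gene cwp-1 had 4 reads in granulin 2 replicate 2 and 0 in the other 7 libraries, and cwp-3 had 0 in all 8. Of the 8 genes on the list 2 passed the filter, cwp-4, which was not called, and try-5, a seminal fluid protease of males, which was higher at 0.348 ± 0.113 CPM against 0.126 ± 0.0464 CPM (SD, n = 4 each, adjusted p = 0.0364). That call was lost in 14 of 21 alternatives, among them leaving out wild-type replicates 1, 2 or 3 (adjusted p 0.0534, 0.0595 and 0.143) or granulin 2 replicates 1, 2 or 3 (0.0723, 0.112 and 0.08). The part of male tissue in the sperm gene values was not tested.

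Lists of germline regulators held few calls, some of them in genes known from spermatogenesis. The Argonautes alg-3 and alg-4 bind small RNAs that act in spermatogenesis. The gene alg-3 had 9.56, 4.16, 10.2 and 16.35 CPM in granulin 2 and 0.223, 0.267, 0.0405 and 0.212 CPM in wild type. For alg-3 the rise was 5.59 ± 0.86 (adjusted p = 3.84e-05), and alg-4 rose by 5.88 ± 0.92 (adjusted p = 5.2e-05), the 2 higher among 22 germ granule and Argonaute genes, of which none was lower (median -0.19). That share of 9.09% lay below the 15.5% of all genes, and it was the same in the next list. Of 22 germline sex determination genes fog-3, which sets the sperm fate, rose from 0.319 ± 0.104 to 2.66 ± 0.652 CPM (2.97 ± 0.55, adjusted p = 0.000352). The protease gene tra-3 was the other one called, at 1.00 ± 0.31 (adjusted p = 0.0244), a call lost without wild-type replicates 2 or 4 or granulin 2 replicate 1 (0.0593, 0.0825 and 0.08). Of 11 catalytic subunits of protein phosphatase 1, 3 were higher (27.3%, against 15.5% of all genes) and 0 lower. These were gsp-3 (4.83 ± 0.76, adjusted p = 5.22e-05), gsp-4 (4.87 ± 0.65, adjusted p = 8.71e-06) and pph-2 (4.21 ± 0.60, adjusted p = 1.73e-05). The sperm-specific forms gsp-3 and gsp-4 were also counted in the spermatogenesis and fertilization list. The histone H3 variant gene his-70 was the 1 of 33 histone genes called, at 0.272 to 1.95 CPM in granulin 2 and 1 read in all 4 wild-type libraries together (4.76 ± 0.61, adjusted p = 5.03e-06). The gene peel-1, a toxin that sperm deliver to the egg, was singled out after its values were seen: it had 9, 107, 81 and 18 reads in granulin 2 and 0 in all wild-type libraries, which makes it at least 7.49-fold higher against a floor of 3 reads per library (counting error only).

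Female germline and meiosis genes gave 1 call among the lists examined. None of 27 meiotic axis, synapsis and crossover genes was called (median -0.36), and 2 of the 27 changes were above 0. Lower calls in this list numbered 0 to 7 over the alternatives, with 5 under the length slope as a covariate and 7 under library weights. The lowest p of the list belonged to zhp-3, which acts at crossovers, at -1.08 ± 0.38 (adjusted p = 0.051). It passed in 8 of 21 alternatives, among them leaving out wild-type replicate 4 (0.00613) or granulin 2 replicate 2 (0.0431). Of 27 oocyte and eggshell genes 1 fell, perm-2, which is needed for the permeability barrier of the egg. It had 761.4, 253.5, 564.8 and 699.7 CPM in granulin 2 and 1623, 1772, 1403 and 1983 CPM in wild type (-1.68 ± 0.51, adjusted p = 0.0236), and lost the call without wild-type replicate 2 (0.0536) or granulin 2 replicate 2 (0.0986). The sum of the oocyte list was 25520, 3979, 6395 and 31100 CPM in granulin 2 and 25750, 32710, 21010 and 8641 CPM in wild type. It was thus low in granulin 2 replicates 2 and 3, the libraries with negative length slopes, and in wild-type replicate 4, and the part of those library differences in the result was not tested. The list's median of -0.55 ranged from -1.40 to 0.36 over the alternatives. No vitellogenin or yolk receptor gene was called among 7 (median -0.57, from -1.13 to 0.44 over the alternatives).

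Cuticle collagens, the structural proteins of the worm's outer coat, were the next large group. Of 140 tested, 53 were higher and 2 lower, a share of higher calls above the 15.5% of all genes, with a median of 0.98. The called members had a median of 5.14 CPM in granulin 2 and 0.492 CPM in wild type, and 15 of them reached 10 CPM. The summed level of the whole list was 8856 to 27030 CPM in granulin 2 and 13530 to 65800 CPM in wild type, so the strains overlapped in total collagen RNA. The gene col-109 had 21.7, 5, 9.1 and 18.2 CPM in granulin 2 and 0.0609, 0.356, 0.121 and 0.508 CPM in wild type (5.66 ± 0.61, adjusted p = 1.07e-06). Further examples are col-49 (5.22 ± 0.55, adjusted p = 9.64e-07) and col-161 (4.54 ± 0.48, adjusted p = 1.04e-06). Higher still in level, and named after their values were seen, were col-139 at 262.8 CPM against 36.5 CPM (2.86 ± 0.68, adjusted p = 0.00391), col-129 at 230.4 against 35.2 CPM (2.71 ± 0.70, adjusted p = 0.00711) and col-81 at 204.8 against 26.9 CPM (2.92 ± 0.64, adjusted p = 0.00194). Other collagens at or above these levels in granulin 2 were not called. All of them but col-124 (1627 against 985.4 CPM) had lower means in granulin 2, such as col-119 (1720 against 4351 CPM) and col-95 (219.3 against 1380 CPM). These too were named after their values were seen. Higher collagens numbered 38 to 59 over the alternatives. The lower ones, col-187 (adjusted p = 0.0366) and col-158 (adjusted p = 0.0495), lost the call in 15 and 14 of the 21. Leaving out wild-type replicate 1 gave 6 lower collagens, while leaving out replicate 2, 3 or 4 of wild type or replicate 2 or 3 of granulin 2 gave 0, and replicate 4 of granulin 2 gave 1.

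The strut collagens bli-1 and bli-2 of the adult cuticle were called among 7 blister, roller and squat collagens. The gene bli-1 had 3.92, 4.64, 11.4 and 7.86 CPM in granulin 2 and 0.305, 0.223, 0.587 and 0.889 CPM in wild type (3.77 ± 0.55, adjusted p = 2.18e-05), and bli-2 rose by 4.60 ± 0.61 (adjusted p = 7.89e-06). All 7 changes were above 0, with a median of 1.55 that ran from 0.46 without wild-type replicate 1 to 2.29 without wild-type replicate 4. None of 6 annular furrow collagens was called, with dpy-7 at -0.81 ± 0.58 (adjusted p = 0.413) and dpy-8 at 0.56 ± 0.82 (adjusted p = 0.737). Of 28 cuticlins, which form other cuticle ribbons, 4 were higher (14.3%, near the 15.5% of all genes) and 1 lower. Among them cutl-25 rose by 2.66 ± 0.34 (adjusted p = 4.37e-06) and cutl-18 fell by 2.14 ± 0.42 (adjusted p = 0.000647). None of 23 moulting regulators and enzymes was called (median -0.08) and none of 9 larval-to-adult timing genes (median -0.24), where daf-12, the steroid receptor of developmental timing, had 18.1 ± 6.32 CPM against 26.8 ± 9.22 CPM (SD, n = 4 each, adjusted p = 0.353). Of 62 Hedgehog-related and patched-related genes 9 were higher, at 14.5% near the share of all genes, and 1 lower (median 0.25). Without wild-type replicate 3, 5 were higher, and 2 in place of 4 cuticlins. The groundhog gene grd-6 rose by 4.12 ± 0.58 (adjusted p = 1.36e-05), and the patched-related gene ptr-23, which acts in the epidermis, was higher at 44.6 ± 21.6 CPM against 10.6 ± 6.22 CPM (2.09 ± 0.40, adjusted p = 0.000478). Of 27 astacin metalloproteases 5 were higher (18.5%, near the share of all genes) and 0 lower.

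The gene unc-31 encodes CAPS, a protein that readies dense core vesicles for release. It had 101.5, 39.2, 61.02 and 110.3 CPM in granulin 2 and 1.64, 2.27, 2.59 and 3.47 CPM in wild type. All granulin 2 libraries lay far above wild type, at a log2 change of 4.88 ± 0.36 (adjusted p = 2.37e-08), and unc-31 was the 1 of 10 dense core vesicle genes called. Against the other strains its change was 5.22 ± 0.36 (the null), 5.51 ± 0.36 (granulin 1) and 4.92 ± 0.36 (granulin 3). In the synaptic vesicle list 0 of 19 were higher and 2 lower (10.5%, against 2.80% of all genes). The synaptobrevin gene snb-1 fell by 1.63 ± 0.39 (adjusted p = 0.00403), and unc-18 was at -0.79 ± 0.26 (adjusted p = 0.0407) in the full set of libraries. The unc-18 call was lost without granulin 2 replicates 2 or 3 (0.144 and 0.108) or any 1 wild-type replicate (0.0588 to 0.0874), and that of snb-1 without granulin 2 replicates 2 and 3 together (0.168). Of 30 FMRFamide-like neuropeptide genes 2 were higher and 2 lower, and of 50 other neuropeptide genes 2 were higher and 1 lower, below the 15.5% of all genes. The first list had 0 higher without granulin 2 replicate 3 and 0 lower without granulin 2 replicate 1, and its members flp-1 (adjusted p = 0.0364) and flp-6 (adjusted p = 0.0468) each lost the call in 12 of 21 alternatives. The second had 4 higher without wild-type replicate 4. Among them nlp-16 rose by 1.94 ± 0.34 (adjusted p = 0.000156) and nlp-4 rose from 0.149 ± 0.114 to 1.54 ± 1.02 CPM (SD, n = 4 each, adjusted p = 6.29e-05). Of 20 neuronal identity genes 4 were higher (20%, against 15.5% of all genes), including the dopamine synthesis gene cat-2 (2.66 ± 0.66, adjusted p = 0.00561) and the ciliary dynein gene che-3, at 5.5 to 21.3 CPM against 1.02 to 1.28 CPM (2.90 ± 0.45, adjusted p = 4.84e-05).

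Insulin-like peptides signal through the worm's single insulin receptor. Of 21 tested, 5 were higher (23.8%) and 1 lower (4.76%), against 15.5% and 2.80% of all genes. The list's median was 0.66, and the 5 higher had at most 1.49 CPM in granulin 2. The gene ins-37 rose by 4.09 ± 0.58 (adjusted p = 1.55e-05). In the other direction, ins-19 had 1 to 4 reads in each granulin 2 library and 0.629, 1.38, 9 and 13.8 CPM in wild type (-5.82 ± 1.20, adjusted p = 0.000989), a level that also varied within wild type. Its level in the other strains ranged from 0.612 to 4.09 CPM in the null, from 0.121 to 14.2 CPM in granulin 1 and from 0.0377 to 0.765 CPM in granulin 3. None of the 12 genes from the insulin receptor to DAF-16 was called. Among 8 superoxide dismutases and catalases sod-5, a superoxide dismutase of the cytosol, was higher, with 2.06, 1.39, 1.68 and 1.96 CPM in granulin 2 and 0 or 3 reads per library in wild type (5.11 ± 0.48, adjusted p = 4.28e-07). Of 20 zinc transporters and metallothioneins, 2 were higher: cdf-2, which loads zinc into the gut's lysosome-related granules, had 48.2, 55.01, 54.4 and 40.97 CPM against 3.37, 2.002, 2.87 and 1.57 CPM (4.37 ± 0.28, adjusted p = 6.42e-09). The level of cdf-2 in granulin 3 differed from that in granulin 2 by -0.48 ± 0.28 (adjusted p = 0.368, granulin 2 minus granulin 3).

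Lysosomal genes, the group for which progranulin is best known, had few higher calls, and the number of lower calls depended on the processing. Over 7 lists of lysosomal and autophagy genes with 129 tested members, 4 were higher and 8 lower. Their share of higher calls lay below the 15.5% of all genes, and their share of lower calls above the 2.80% of all genes. The counts were 4 and 9 with scaling by median ratios, 6 and 27 with the length slope as a covariate and 7 and 27 with library weights. They were 4 and 2 on the deposited scale without scaling factors, and 1 and 1 without the libraries above 20% ribosomal RNA. For hlh-30, a transcription factor that activates genes of lysosomes and autophagy, the libraries held 69.04, 17.7, 35.2 and 69.5 CPM in granulin 2 and 58.9, 91.4, 62.99 and 99.4 CPM in wild type (-0.87 ± 0.45, adjusted p = 0.222), and the strains overlapped. The cathepsin D-like gene asp-3 was at -0.60 ± 0.56 (adjusted p = 0.558) and the lysosomal membrane gene lmp-1 at -0.09 ± 0.44 (adjusted p = 0.93). Of 14 genes of HLH-30, MML-1 and TOR regulation and of 11 aspartyl proteases none was called. Of 10 cysteine proteases 2 were lower and none higher (median -0.95). The cathepsin B-like gene cpr-6 had 575.3, 316.3, 289.9 and 490.5 CPM in granulin 2 and 712.3, 903.1, 912.1 and 1904 CPM in wild type (-1.36 ± 0.40, adjusted p = 0.02), and cpr-9 was at -1.46 ± 0.44 (adjusted p = 0.0214). Neither kept its call without wild-type replicate 4 (0.061 for cpr-6 and 0.0681 for cpr-9), granulin 2 replicate 2 (0.0609 and 0.0674) or granulin 2 replicate 3 (0.0812 and 0.0658).

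Of 25 lysosomal lipases, nucleases and glycosidases, 3 were lower and 1 higher (median -0.45). The hexosaminidase gene hex-1 had 24.03, 27.7, 22.4 and 18 CPM in granulin 2 and 49.96, 62.2, 103.9 and 162.8 CPM in wild type, and it fell by 1.90 ± 0.42 (adjusted p = 0.00203), or 0.0969 without the 3 libraries above 20% ribosomal RNA. The lipase gene lipl-5 fell by 2.12 ± 0.55 (adjusted p = 0.00703), though granulin 2 replicate 1, at 60.9 CPM, lay above wild-type replicate 1, at 33.4 CPM, and its call too was lost without those 3 libraries (0.213). The glucocerebrosidase gene gba-4 was at -1.73 ± 0.59 (adjusted p = 0.0446), and it lost the call without wild-type replicates 2, 3 or 4 (0.0669, 0.154 and 0.0999) or granulin 2 replicates 2 or 4 (0.0888 and 0.174). The nuclease gene crn-6 rose from 1.61 ± 0.703 to 4.67 ± 0.985 CPM (1.61 ± 0.37, adjusted p = 0.00309, or 0.0558 without granulin 2 replicates 2 and 3 together). In the vacuolar ATPase, the pump that acidifies lysosomes, 0 of 21 were higher and 2 lower (9.52%, against 2.80% of all genes, median -0.50). Both encode the proteolipid ring: vha-1 had 72.8 to 86.97 CPM against 126.1 to 146.8 CPM (-0.75 ± 0.26, adjusted p = 0.0472), and vha-2 had 145.6 to 401.2 CPM against 594.9 to 735.9 CPM (-1.28 ± 0.37, adjusted p = 0.0173). The call of vha-1 was lost whichever of the 8 libraries was left out (0.0675 to 0.123), and that of vha-2 without wild-type replicate 1 or granulin 2 replicates 2 or 3 (0.0509, 0.0808 and 0.0649). Of 20 lysosomal membrane genes 2 were higher and 1 lower. In the autophagy list 1 of 28 was higher (3.57%, against 15.5% of all genes) and 0 lower, with a median of -0.53. The higher gene was epg-2, an adaptor for aggregate clearance, at 1.51 ± 0.45 (adjusted p = 0.0199). Without wild-type replicates 3 or 4 or granulin 2 replicate 1 its adjusted p was 0.0934, 0.0571 and 0.0722. On the deposited scale lower calls numbered 0 in the cysteine proteases, 2 in the hydrolases, 0 in the vacuolar ATPase and 0 in autophagy, and without wild-type replicate 4 autophagy had 5. The medians of these 4 lists stayed below 0 under all 21 alternatives, and the median of all tested genes was -0.29 at 10 to 100 CPM and -0.35 at 100 CPM or more.

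F-box genes encode adaptors that select proteins for degradation. Of 90 tested F-box B and C genes 47 were higher (52.2%, against 15.5% of all genes) and 0 lower (median 1.81). The 47 had medians of 0.492 CPM in granulin 2 and 0.0956 CPM in wild type. By mean over all 20 libraries, 36.7% of all genes were higher under 0.3 CPM and 36.4% at 0.3 to 1 CPM. The gene fbxb-97 was at 4.65 to 7.995 CPM against 1.02 to 1.62 CPM (2.18 ± 0.27, adjusted p = 4.24e-06). Without the libraries above 20% ribosomal RNA 26 members of this list were higher. Of 117 F-box A genes 21 were higher, a share of 17.9% that is near that of all genes, and 5 lower, or 3 without granulin 2 replicate 1 or 4. The F-box A median of 0.34 ranged from -0.09 to 0.67 over the alternatives. Among them fbxa-218 rose by 5.19 ± 0.48 (adjusted p = 3.63e-07), from 0.301 ± 0.127 to 12.4 ± 6.05 CPM, and fbxa-192 fell by 2.31 ± 0.38 (adjusted p = 9.63e-05), from 12.1 ± 4.07 to 2.31 ± 0.223 CPM. The level of fbxa-192 in the null was lower still, so that granulin 2 minus the null was 1.77 ± 0.38 (adjusted p = 0.00165). Of 59 MATH and BTB-MATH genes 7 were higher and 6 lower (11.9% and 10.2%, against 15.5% and 2.80% of all genes).

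C-type lectins, secreted sugar-binding proteins that include many immune effectors, changed in both directions. Of 114 tested, 28 were higher (24.6%) and 12 lower (10.5%), against 15.5% and 2.80% of all genes. The gene clec-60 had 1.43, 3.34, 3.53 and 2.41 CPM in granulin 2 and at most 2 reads per library in wild type (5.64 ± 0.42, adjusted p = 2.37e-08). In contrast clec-4 had 2.13, 0.392, 0.763 and 1.98 CPM in granulin 2 and 8.95, 10.6, 6.7 and 27.6 CPM in wild type, and fell by 3.40 ± 0.51 (adjusted p = 3.15e-05). Without the libraries above 20% ribosomal RNA 18 lectins were higher and 3 lower. Lower lectins numbered 23 with the length slope as a covariate, and higher ones 53 without the filter on low levels. Of 33 lysozymes and saposin-like genes 2 were higher and 2 lower (6.06% each), with 5 higher without wild-type replicate 4. The lysozyme gene lys-7 was higher at 17.6 to 54.9 CPM against 1.69 to 9.81 CPM (2.84 ± 0.67, adjusted p = 0.00346, or 0.092 without the libraries above 20% ribosomal RNA). Of 23 pals genes, which respond to intracellular pathogens, 5 were higher (21.7%, against 15.5% of all genes), or 3 without wild-type replicate 1. The 5 had at most 1.1 CPM in granulin 2.

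Among detoxification enzymes, 12 of 43 glutathione S-transferases were higher (27.9%, against 15.5% of all genes) and 0 lower. Their highest level was 4.48 CPM in granulin 2 (gst-24, outside the naming rule). Of 62 UDP-glucuronosyltransferases 14 were higher (22.6%) and 0 lower. Without granulin 2 replicates 2 and 3 together, 8 glutathione S-transferases and 5 UDP-glucuronosyltransferases were higher. Of 59 cytochrome P450 genes 5 were higher and 5 lower (8.47% each, against 15.5% and 2.80% of all genes). The higher count was 3 without granulin 2 replicate 2 or 3, and the lower count was 2 without wild-type replicate 1 or 3 or granulin 2 replicate 1 or 4, 1 on the deposited scale and 0 without the libraries above 20% ribosomal RNA. Among them cyp-33D3 rose by 2.77 ± 0.44 (adjusted p = 5.89e-05), and cyp-25A1 fell by 1.91 ± 0.44 (adjusted p = 0.00307), from 29.8 ± 8.63 to 8.01 ± 2.53 CPM, with an adjusted p of 0.122 without the libraries above 20% ribosomal RNA. In fatty acid metabolism 10 of 54 genes for activation, oxidation and elongation were higher and 3 lower. Those shares were 18.5% and 5.56%, against 15.5% and 2.80% of all genes. The acyl-CoA synthetase gene acs-10 had 14.7, 4.03, 8.25 and 15.99 CPM in granulin 2 and 5, 8, 3 and 0 reads in wild type (6.69 ± 0.87, adjusted p = 6.37e-06), the elongase gene elo-8 rose by 4.45 ± 0.45 (adjusted p = 7.63e-07) and the acyl-CoA dehydrogenase gene acdh-8 rose by 5.55 ± 0.65 (adjusted p = 2.3e-06). None of 7 fatty acid desaturases was called. Of 51 transthyretin-like genes 7 were higher (13.7%, near the 15.5% of all genes) and 0 lower. Of 183 nuclear hormone receptors 14 were higher (7.65%) and 3 lower (1.64%), below the 15.5% and 2.80% of all genes. For the receptors, 8 were higher without wild-type replicate 2, and 0 to 5 were lower with any 1 library left out. Of 45 ceh homeobox genes none was called, of 18 apoptosis and engulfment genes 1 was higher, and of 16 epidermal antimicrobial peptides 1 was lower.

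Calls were rare in housekeeping lists, and also among all genes at 100 CPM or more, where 0.254% were higher and 1.83% lower. Of 79 cytosolic ribosomal protein genes 1 was higher and 1 lower (1.27% each, median -0.36). Of 53 nuclear respiratory chain genes 0 were higher and 1 lower (1.89%). None was called of 33 proteasome genes, 16 endoplasmic reticulum stress genes and 8 mitochondrial stress genes. Of 9 cytosolic heat shock genes 3 were higher (33.3%, against 15.5% of all genes). The small heat shock protein gene hsp-16.2 had 0.204, 3.42, 1.03 and 0.373 CPM in granulin 2 and 0.0223 to 0.254 CPM in wild type (2.90 ± 0.74, adjusted p = 0.00677), and hsp-70 had 0.566, 5.57, 0.735 and 0.437 CPM against 0.169 to 0.263 CPM (2.12 ± 0.59, adjusted p = 0.0135). Both were far highest in granulin 2 replicate 2. Without granulin 2 replicates 2 and 3 together, 0 of the heat shock genes were called. In the muscle list 1 of 30 was higher, in the epidermis list 1 of 12 and in the intestine list none of 12, with sums in granulin 2 and wild type that overlapped. The 2 calls, pat-2 (adjusted p = 0.0497) and che-14 (adjusted p = 0.0481), were lost in 14 and 16 of 21 alternatives. The muscle count was 3 without wild-type replicate 4, 2 without granulin 2 replicate 2 and 0 without any other 1 library, and the epidermis count was 0 without any 1 library but granulin 2 replicate 4.

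**Figure D4:**
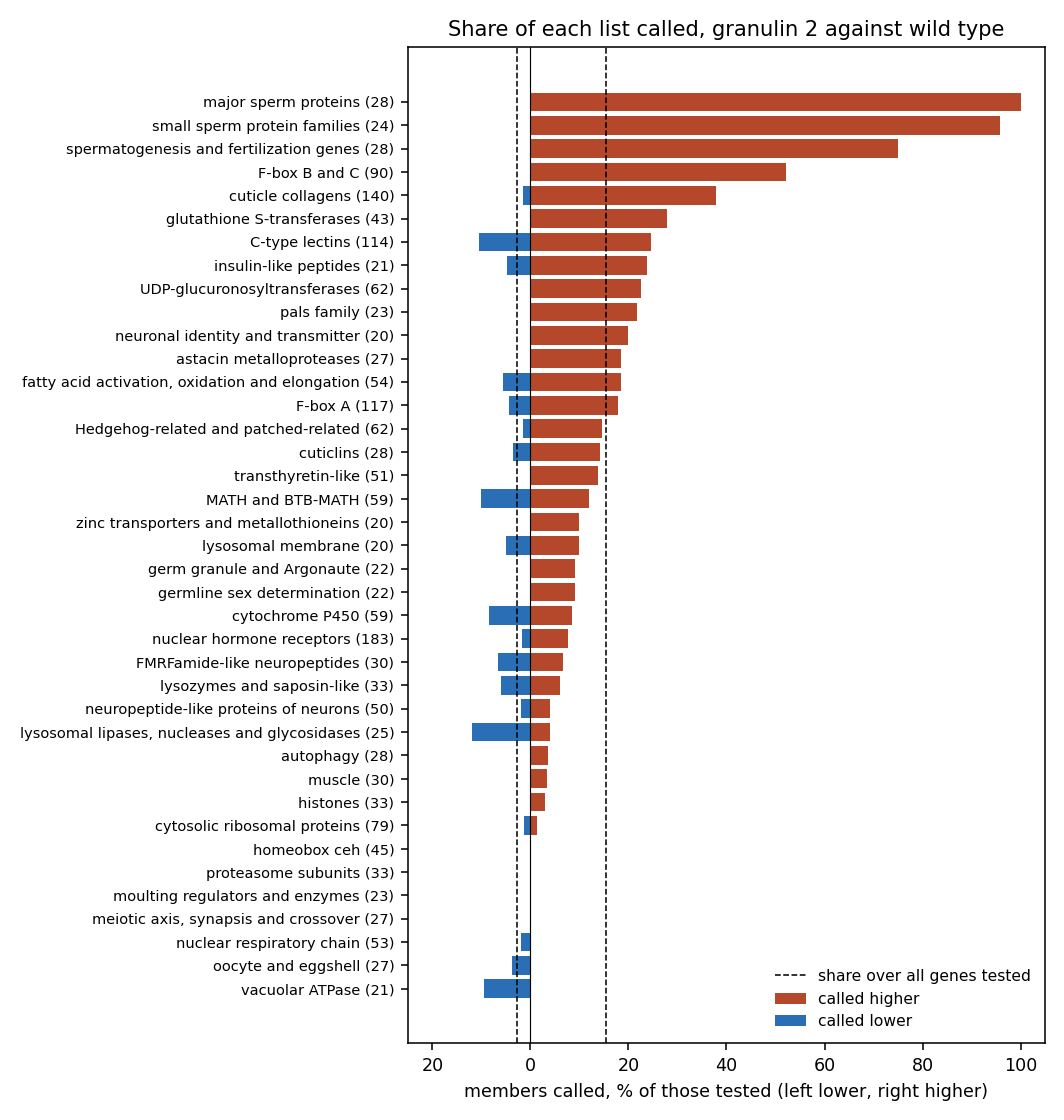
Bars give the percent of each list's tested members (number in brackets, lists of 20 or more) called higher to the right and lower to the left, with dashed lines at the shares over all genes, 15.5% and 2.80%. The 3 sperm lists, F-box B and C and the collagens reach furthest to the right, and the lysosomal hydrolases furthest to the left.

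The largest upward change of all tested genes was that of C38D9.2, a gene outside the sperm and collagen lists. C38D9.2 (chromosome V) had 296.5, 92.3, 157 and 525.4 CPM in granulin 2 and 0.203, 0.378, 0.223 and 0.551 CPM in wild type, a change of 9.32 ± 0.47 (adjusted p = 1.01e-10). F15D4.5 (chromosome II) followed the same order of libraries, with 237.5, 75.3, 126.6 and 331.7 CPM against 1.24, 2.14, 1.07 and 2.12 CPM (6.70 ± 0.45, adjusted p = 7.6e-09). Both were lowest in granulin 2 replicate 2 and highest in replicate 4, and no wild-type library came near. The other genes with the largest upward changes were C33F10.1 (7.46 ± 0.73), Y38C1AA.7 (7.15 ± 0.75), R09E10.2 (7.12 ± 0.67), T23F6.5 (6.95 ± 0.67), msrp-5 (6.78 ± 0.67), C17F3.1 (6.75 ± 0.65), F08B4.8 (6.72 ± 0.74), acs-10, the neuropeptide receptor gene npr-34 (6.68 ± 0.81) and msrp-2 (6.65 ± 0.62), with adjusted p between 4.04e-07 and 6.37e-06. These 10 had means of 5.47 to 21.1 CPM in granulin 2 and under 0.2 CPM in wild type, where several libraries had 0 reads, so their folds rest on the prior count. At 100 CPM or more in granulin 2, 13 genes were higher. Besides those already named they included snu-13, a protein of RNA particles in the nucleolus (482 ± 227 against 209.6 ± 71.96 CPM, 1.16 ± 0.38, adjusted p = 0.0359), and tos-1, a splicing reporter gene (292.6 ± 115.7 against 109 ± 30.8 CPM, 1.38 ± 0.37, adjusted p = 0.0106), both named after their values were seen.

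Downward, the largest changes under the naming rule after ins-19 were those of ZC317.7, which had 0.77, 0.635, 0.424 and 0.94 CPM in granulin 2 and 14.4, 13.2, 15.3 and 2.29 CPM in wild type and fell by 3.71 ± 0.54 (adjusted p = 1.98e-05), and Y46D2A.2, which had 0.907 to 1.48 CPM against 10.98 to 18.6 CPM and fell by 3.58 ± 0.37 (adjusted p = 7.63e-07). K07C11.7 fell by 2.79 ± 0.49 (adjusted p = 0.000203), from 276 ± 181.5 to 35.3 ± 8.98 CPM, and EEED8.3 fell (SE 0.42, adjusted p = 0.000249) from 230.8 ± 34.2 to 49.8 ± 21.4 CPM. The others in this set were clec-4, F40D4.17, Y82E9BR.18, C27A7.8, clec-66, the zinc finger gene ztf-28 and fbxa-192, all between -3.40 and -2.31. F56A4.3, singled out after its values were seen, had 155, 162, 289 and 160 reads in wild type and 0 in all granulin 2 libraries, which makes it at least 108.1-fold lower against a floor of 3 reads per library (counting error only, adjusted p = 5.75e-12). It was the 1 gene called lower with no read in granulin 2, while 66 genes called higher had no read in wild type.

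The same fit gave granulin 2 against each other strain. Against the pgrn-1 null 17.5% of genes were higher and 4.18% lower, against granulin 1 14.8% and 4.12%, and against granulin 3 3.67% and 1.72%. These comparisons share the granulin 2 libraries, so their values are given side by side. For C38D9.2 the change was 9.32 against wild type, 11.7 against the null, 9.02 against granulin 1 and 7.96 against granulin 3. T23F6.5 (6.95, 7.89, 6.17 and 6.94 in that order), npr-34 (6.68, 6.34, 6.41 and 6.44), the gap junction gene inx-6 (6.31, 6.997, 6.90 and 6.37), F15D4.5 (6.70, 7.59, 6.28 and 5.67) and the peptide receptor gene dmsr-6 (5.26, 6.22, 5.65 and 5.21) were likewise higher against all 4. For dmsr-6 the granulin 2 libraries held 23.8 ± 5.86 CPM (SD, n = 4), all above the 0.211 to 0.89 CPM in the 16 other libraries. Among genes lower against all 4 were ZC317.7, Y46D2A.2, Y82E9BR.18, EEED8.3, mans-4, for an alpha-mannosidase (-2.27, -2.65, -2.104 and -2.32), and lrpr-1 (-2.05, -1.97, -1.98 and -1.95). For the sperm lists the values ran otherwise. All 28 major sperm proteins were higher against wild type, the null and granulin 1, with medians of 5.54, 4.10 and 3.53, and against granulin 3 0 of 28 passed, with a median of 1.66. Their summed level in granulin 3 was 31.6 to 412.2 CPM, and in the null and granulin 1 it was 8.04 to 41.04 and 17.9 to 64.1 CPM. Collagens called higher were 53 against wild type, 70 against the null, 61 against granulin 1 and 10 against granulin 3.

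**Figure D5:**
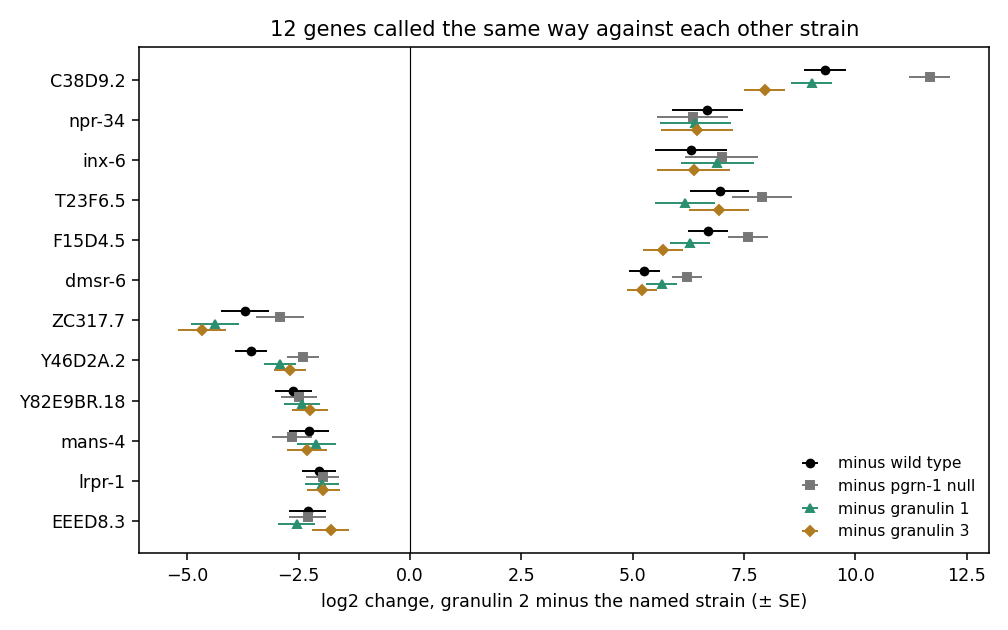
Points give the log2 change of 12 genes, granulin 2 minus each other strain, with bars of ± SE (n = 4 per strain). The 6 upper genes lie between 5.21 and 11.7 in every comparison, and the 6 lower genes between -4.68 and -1.78.

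Calls were not spread evenly over the chromosomes. Of tested protein-coding genes 17.7% were higher on chromosome I, 17.4% on II, 12.4% on III, 19.5% on IV and 16.19% on V, but 6.29% (133 of 2114) on X, while lower calls ran from 1.73% on I to 3.49% on V with 2.93% on X. Within 500000 bases on either side of pgrn-1, 33 of 110 protein-coding genes were higher and 2 lower. Beside this, 17.7% of tested protein-coding genes on chromosome I and 15.2% of those on all chromosomes were higher. A local effect was not tested.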

How the data were processed

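Each library came with a file in which the authors deposited log2 CPM values of 46778 genes. STAR, HTSeq, edgeR, limma and ce11 are named, with no versions, in the submitters' processing notes. Neither names an annotation or a strand setting. All files share a floor of 0 reads, and whole reads were recovered from the steps above it (7 values in all were not whole within 0.01 reads), with a prior count of 2 scaled to library size. Gene names and positions were taken from Ensembl release 115 (WBcel235, the assembly of ce11), where 46603 IDs were found.

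Because the deposited unit is log2, no count model was fitted. Log2 CPM with a prior count of 2 was recomputed from the recovered reads with trimmed mean (TMM) scaling (30% of ratios and 5% of levels trimmed) and tested with limma 3.58.1 in R 4.3.3 (mean-variance trend, robust) over all 20 libraries, with 1 mean per strain. A gene was kept at 0.177 CPM or more in 4 libraries or more, and with 15 reads or more in all. P-values were adjusted over the 15737 kept genes by the Benjamini-Hochberg method, and 0.05 was the threshold. Fold changes include the prior and understate low genes. Errors are moderated standard errors unless given as SD. CPM in the text are scaled by TMM and are not per length. The code was tested on simulated data. Replicate pairs all differed by more than sampling noise (chi-square per degree of freedom 158 or more).

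Groups follow the strain label, since the group label gives AWK33 to all granulin strains, and replicates are numbered in accession order. Lists and comparisons were chosen with earlier results of these data known. The naming rule took pgrn-1, unc-119, hlh-30, asp-3 and lmp-1, the 12 largest protein-coding changes each way outside the sperm and collagen lists (called, no overlap, at least 5 CPM), up to 3 called members per list and direction with the smallest p, and 6 genes each way called against all other strains. Tests were 2-sided. Alternatives changed scaling, filter, prior, samples and weights, thinned reads to equal depth, or left out libraries.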

Additional observations from a re-analysis of the deposited data

Results flagged for a closer look

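Within the groups of 4 libraries, 5 of 66 examined for the named genes held a library set apart from its group by Dixon's criterion, where chance alone gives about 1 in 20. All 5 were in wild type, 4 of them in replicate 4, the library with 44.8% ribosomal RNA reads. The cathepsin D-like gene asp-3 had 2470 CPM there and 597.2 to 651.3 CPM in the other 3. ZC317.7 had 2.29 CPM there and 13.2 to 15.3 CPM in the others, still above the highest granulin 2 library at 0.94 CPM. Y82E9BR.18 had 53.3 CPM against 101.6 to 110.3 CPM, and Y38C1AA.7 had 0 CPM against 0.122 to 0.142 CPM. The remaining one was msrp-5, with 0.122 CPM in wild-type replicate 1 and 0 in the other 3.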

How the results depend on the processing

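The count of higher genes stayed within 1.5 times its value of 2444 under all 21 alternatives (1897 without granulin 2 replicates 2 and 3 together, an alternative chosen after seeing the data, to 3345 without the filter on low levels). With 1 library left out it ran from 2148 to 2584, and 2144 to 2313 of the 2444 kept their call. The count of lower genes was less stable. From 441 it went to 84 on the deposited scale without scaling factors, 1839 with the length slope as a covariate, 1762 with library weights (whose fit stopped before it converged) and 175 without the 3 libraries above 20% ribosomal RNA (wild-type replicate 4, granulin 2 replicates 3 and 4). Leaving out 1 library gave 258 (without wild-type replicate 3) to 569 (without wild-type replicate 4). The cause was not tested. Of 159 called genes among the 189 named, 100 kept the call under all alternatives, 59 lost it under 1 or more, and none of the 189 changed direction where called. Of 96 list counts of 3 or fewer calls in 1 direction, 40 moved by over 1.5 times when some 1 library was left out. No paired analysis was possible because the strains share no letter in their sample names and replicates are numbered in accession order. Weak genes limit precision: the floor of 3 reads per library is 0.0788 CPM on average in wild type and 0.0448 CPM in granulin 2.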
